A study of Rattus norvegicus with 4 samples.

Results

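The potassium channel genes described here are the rat genes whose symbol starts with Kcn, found through the RefSeq accession of each array probe. RefSeq listed 95 such protein-coding genes, 82 of them had a probe among the 41012 on the array, and 58 were measured, out of 9304 genes measured in all. A gene counted as measured when its probe was well above background on at least 3 arrays in the T3 channel or the saline channel, and the brightest such probe stood for the gene. The 58 comprised 22 voltage-gated subunits, 12 inward rectifiers, 9 two-pore channels, 6 calcium-activated channels (with the sodium-activated Kcnt1 and Kcnt2) and 9 auxiliary subunits. The members were chosen by name and not by their values.

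The study measured hypothalamic RNA of 8 male Sprague Dawley rats on 4 two-colour Agilent arrays. All 8 rats, controls included, drank 0.025% methimazole (MMI), a blocker of thyroid hormone synthesis, for 22 days from 7 weeks of age. On day 21, 4 rats were given T3 (triiodothyronine, the receptor-active thyroid hormone) by injection at 25 µg per 100 g and the other 4 were given saline, and tissue was taken 24 hours later, at 10 weeks of age. No group without MMI was analysed here, so every comparison is between hypothyroid rats with and without 1 T3 injection. The tissue was a block of hypothalamus spanning bregma -2.12 to -4.52 mm, and all 8 hypothalamus marker genes fixed for the check were well above background on every array in both channels. So were 8006 of the 9304 genes measured, including all 8 astrocyte and all 8 oligodendrocyte markers, so this count says little about the dissection. Each array carried 1 T3 rat and 1 saline rat, so the array is the replicate (n = 4). The T3 rat was labelled with Cy5 on arrays 1 and 3, and with Cy3 on the others. The share of probes clearly above background was 49.8% to 67.3% for T3 rats and 51.1% to 62.5% for saline rats. The T3-induced corepressor gene Hr was higher in the T3 channel on all 4 arrays, with a mean log2 ratio of 1.18 ± 0.15 (SD, n = 4; limma adjusted p = 0.013), and 15 of the 9304 genes passed an adjusted p of 0.05 in either direction, which is 0.161%. Hr lost that call without array 1, 3 or 4, with means of 1.18, 1.19 and 1.12, and no probe of any gene was called in those 3 refits, against 68 without array 2.

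Potassium channels are membrane pores that let potassium leave or enter the cell, and they set the resting potential, end the action potential and shape firing rate. Voltage-gated channels open on depolarisation, inward rectifiers pass current best near the resting potential and clear extracellular potassium in glia, two-pore channels carry the background leak, and calcium-activated channels open when intracellular calcium rises after spikes. In the hypothalamus they govern the firing of neurons that sense glucose and leptin and that release hormones. Auxiliary subunits form no pore but alter the trafficking and gating of the channels they bind.

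No potassium channel gene passed the adjusted threshold: 0 of 58, beside 0.161% of all genes. At an unadjusted limma p under 0.05 there were 10 members (17.2% of the 58), beside 9.26% of all genes tested. Of these, 7 were higher in the T3 channel (12.1%, beside 5.34% of all genes) and 3 were lower (5.17%, beside 3.92%). Ratios above 0 on all 4 arrays were found in 10 members (17.2%, beside 9.47%), and ratios below 0 on all 4 arrays in 3 (5.17%, beside 7.81%). The mean log2 T3/saline ratio was above 0 for 35 members and below 0 for 23, with a median of 0.045 beside 0.0042 over all genes. On arrays 1 to 4 the median of the members was 0.079, 0.037, 0.10 and -0.033, so array 4 went the other way.

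Under the main processing only, the intervals bound how large a difference these arrays leave room for. The limma 95% interval lay inside a doubling or halving for 57 of 58 members, Kcnj16 being the exception, beside 9219 of the 9304 genes measured. It lay inside a 1.5-fold change in either direction for 56 of 58 (96.6%, beside 95.2% of all genes), the exceptions being Kcnj16 and Kcng4. These are intervals for RNA in a whole tissue block, in which fewer cells of a type and less RNA per cell cannot be told apart. They do not cover other processing of the same arrays. With the scanner software's processed signals the means of Kcng4, Kcnj10 and Kcnk15 were 1.16, 0.69 and 0.61, above the upper limits of their intervals. None of these genes was well above background on every array in both channels.

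**Figure D1:**
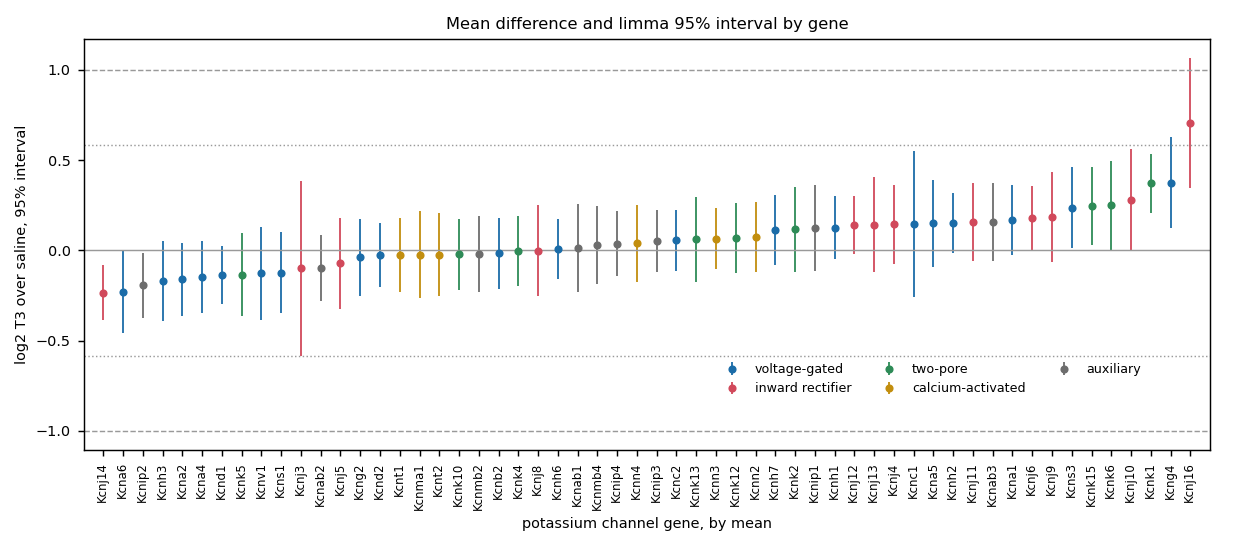
Mean log2 T3/saline ratio (vertical axis) of 56 potassium channel genes, ordered by mean along the horizontal axis. Points are means over the arrays and bars are limma 95% intervals, coloured by channel group, with dotted lines at 1.5-fold and dashed lines at 2-fold. Kcnj16 has the highest mean, 0.71, and its interval alone crosses the upper dashed line.

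The inward rectifiers had the highest group median, and 3 of them with ratios of both signs are shown by the 250 bases upstream of the RefSeq start, so that the motif counts given after them can be seen in the letters. None of the 3 windows holds the AGGTCA half-site of thyroid hormone receptors. Kcnj10 encodes the glial channel Kir4.1, Kcnj6 the G protein-gated neuronal channel GIRK2, and Kcnj14 the neuronal channel Kir2.4. The sequences are from RefSeq (GRCr8), 5′ to 3′ on the strand of the gene: Kcnj10 at chr13:87334260-87334509 (plus strand), Kcnj6 at chr11:47778349-47778598 (minus strand) and Kcnj14 at chr1:105437259-105437508 (minus strand). Capitals mark GC boxes (GGGCGG on either strand).
Kcnj10: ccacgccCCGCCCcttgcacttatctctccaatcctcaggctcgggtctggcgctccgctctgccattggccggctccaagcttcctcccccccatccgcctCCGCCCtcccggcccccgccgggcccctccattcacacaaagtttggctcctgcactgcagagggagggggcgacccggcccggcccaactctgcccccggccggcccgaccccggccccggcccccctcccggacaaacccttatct
Kcnj6: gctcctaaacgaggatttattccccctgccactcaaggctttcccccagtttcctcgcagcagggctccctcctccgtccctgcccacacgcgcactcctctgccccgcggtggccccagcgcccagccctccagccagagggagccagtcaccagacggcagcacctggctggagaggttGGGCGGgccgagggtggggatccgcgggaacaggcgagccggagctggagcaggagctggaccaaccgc
Kcnj14: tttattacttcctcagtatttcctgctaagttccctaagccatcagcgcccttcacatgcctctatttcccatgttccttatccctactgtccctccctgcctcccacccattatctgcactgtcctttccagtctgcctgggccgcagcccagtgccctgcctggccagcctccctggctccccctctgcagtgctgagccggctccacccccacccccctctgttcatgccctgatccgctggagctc
The Kcnj10 window held 2 GC boxes, 20 CG pairs and 72.4% G or C. For Kcnj6 there were 1 GC box, 16 CG pairs and 69.2% G or C, and for Kcnj14 no GC box, 4 CG pairs and 59.6% G or C. These windows lie outside what the arrays measured, and a match or its lack is a description of letters.

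The promoter table held windows for 40 of the 58 measured genes, in 45 entries. Most of these windows do not end at the annotated start of the gene, and some may fall in transcribed sequence. The 3 windows printed above were taken from entries at the gene start. The half-site AGGTCA, searched on both strands, was in 3 of the 45 entries (6.67%), those of Kcnc2 and Kcnh1, beside 14.1% of all 33469 entries of the same length. The direct repeat of that half-site with 4 bases between the copies, the arrangement that thyroid hormone receptors are known to bind, was in 0 of the 45 and in 1 of all entries (0.00299%). GC boxes were in 23 of 45 entries (51.1%, belonging to 21 of the 40 genes), beside 30.5% of all. The median G or C content was 61.2% in the members' entries and 51.2% in all entries.

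The inward rectifiers had the highest group median, 0.14, with 8 of 12 genes above 0 and means from -0.23 to 0.71. Their medians on arrays 1 to 4 were 0.13, 0.057, 0.25 and 0.023, all above 0. With the authors' deposited table the group median was 0.011, and the group was no longer the highest. Ratios were above 0 on all 4 arrays for Kcnj16, Kcnj6, Kcnj12 and Kcnj4 (33.3% of 12, beside 9.47% of all genes) and below 0 on all 4 for Kcnj14.

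Kcnj16 encodes Kir5.1, a subunit that pairs with Kir4.1 in glia and makes the channel sensitive to pH. Its deposited spot brightness (median pixel intensity, before any correction) on arrays 1 to 4 was 7927, 2192, 7120.5 and 1974 for the T3 rats, against 1721, 5313, 1250 and 3557.5 for the saline rats. Raw brightness follows the dye, with Cy5 brighter on every array, so the comparison rests on the dye-normalized ratio. On arrays 1 to 4 the log2 ratio was 1.09, 0.11, 0.95 and 0.68, high on arrays 1, 3 and 4 and near 0 on array 2, and higher on both arrays with T3 in Cy5 than on either with T3 in Cy3. The mean was 0.71 ± 0.43 (SD, n = 4), or 1.63-fold, with an interval of 0.35 to 1.06 (limma adjusted p = 0.21). Without array 2 the mean was 0.91 (limma adjusted p = 0.029), the 1 setting in which a member passed the threshold.

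Kcnj10 encodes Kir4.1, the main potassium-buffering channel of astrocytes. Its log2 ratios were 0.35, -0.14, 0.63 and 0.27, again lowest on array 2, with a mean of 0.28 ± 0.32 (SD, n = 4; limma adjusted p = 0.62). The probe was well above background on 3 arrays in the T3 channel and 2 in the saline channel, so the saline side is close to the detection limit. The mean was 0.69 with the scanner software's processed signals and 0.16 without array 3. All 8 astrocyte markers were well above background on every array, 3 with means above 0 and 5 below, and the list's medians on arrays 1 to 4 were -0.11, -0.39, -0.18 and 0.13. That list, like Kcnj16 and Kcnj10, was lowest on array 2, and its part in their values was not tested.

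The member with the closest agreement between arrays was Kcnj14. Its log2 ratios were -0.26, -0.20, -0.25 and -0.22, all below 0, with a mean of -0.23 ± 0.03 (SD, n = 4; limma adjusted p = 0.34). In the authors' deposited table the same probe had -0.30, 0.03, 0.04 and -0.54, a mean of -0.19 with far more spread between arrays. Kcnj6 had ratios of 0.14, 0.25, 0.29 and 0.03 and a mean of 0.18 ± 0.11 (SD, n = 4; limma adjusted p = 0.60).

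Kcnj11, the pore subunit of the ATP-sensitive channel that couples glucose to firing, had ratios of 0.08, 0.43, 0.17 and -0.06 (mean 0.16 ± 0.20 SD, n = 4; limma adjusted p = 0.76). Its sulphonylurea receptor partners Abcc8 and Abcc9 had means of 0.09 ± 0.17 and -0.01 ± 0.37 (SD, n = 4 each). Kcnj13 encodes Kir7.1, a channel of transporting epithelia such as the choroid plexus. Its ratios were 0.25, -0.27, 0.22 and 0.38 (mean 0.14 ± 0.29 SD, n = 4; limma adjusted p = 0.85). Of 9 choroid plexus markers 6 were measured, and their median on arrays 1 to 4 was 0.17, -0.38, 0.51 and -0.03, with Ttr at 3.53 on array 3. Array 2 was the lowest for both Kcnj13 and the markers, and the part of choroid plexus in the Kcnj13 values was not tested.

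Kcnj3, which encodes the G protein-gated subunit GIRK1, was the most variable member by the probe standing for each gene. It was singled out after its values were seen. Its ratios were -0.70, 0.45, 0.40 and -0.55, a mean of -0.10 with an SD of 0.61, larger than the SD of 98.5% of all genes. Arrays 1 and 4 were low and arrays 2 and 3 high, which does not follow the dye. Its heteromer partners Kcnj6 and Kcnj9 had means of 0.18 ± 0.11 and 0.18 ± 0.27 (SD, n = 4 each), and Kcnj5 had -0.07 ± 0.27. The remaining inward rectifiers Kcnj12, Kcnj4 and Kcnj8 had means of 0.14, 0.14 and 0.00.

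**Figure D2:**
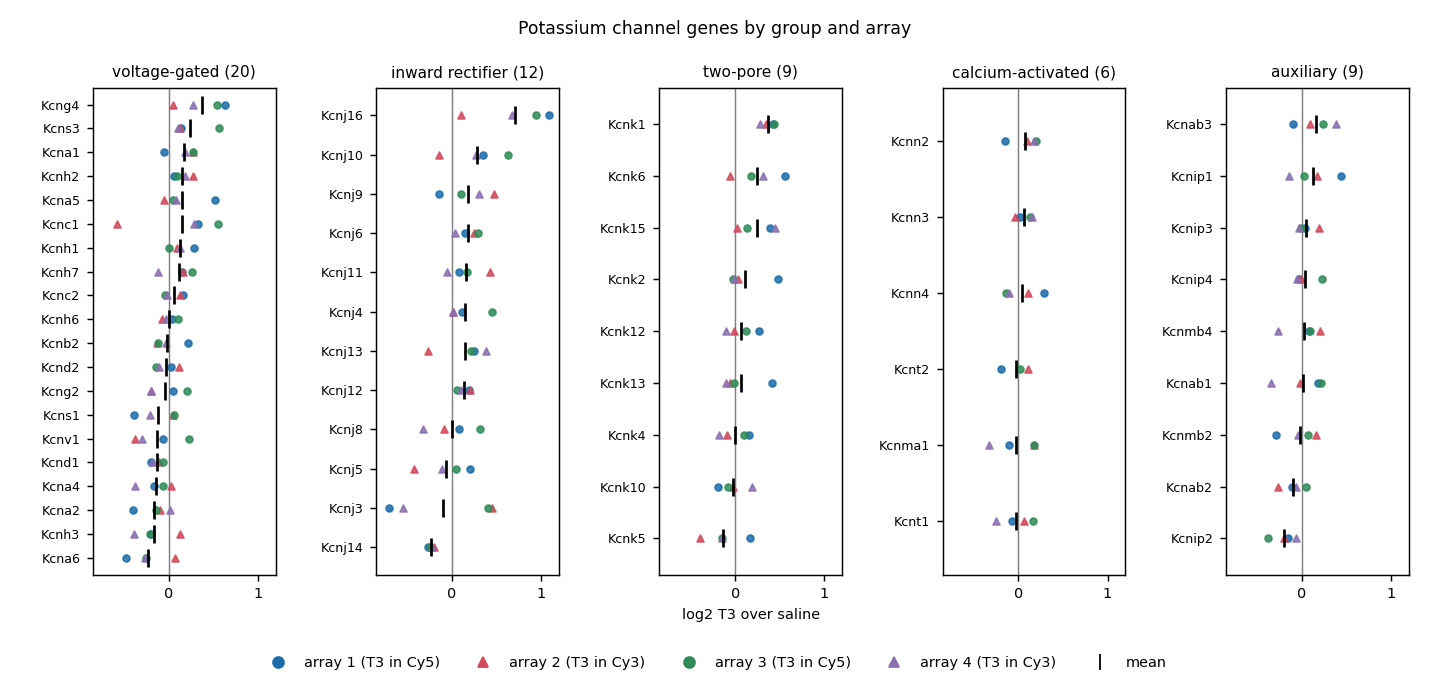
Log2 T3/saline ratio (horizontal axis) of the same 56 genes on each array, in 1 panel per channel group, with circles for arrays with T3 in Cy5, triangles for arrays with T3 in Cy3 and a vertical bar at the mean. The 4 values of Kcnj14 lie between -0.26 and -0.20, while those of Kcnj3 run from -0.70 to 0.45.

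The two-pore channels had 6 of 9 genes above 0, a median of 0.070 and means from -0.13 to 0.37. Their medians on arrays 1 to 4 were 0.39, -0.020, 0.10 and -0.016, so the group was above 0 on arrays 1 and 3, which had T3 in Cy5, and just below 0 on arrays 2 and 4. A dye term in the model left the group median at 0.070, which the balance of dyes over the arrays fixes in advance. The group median was 0.0043 without array 1 and 0.13 without array 4. At an unadjusted limma p under 0.05 there were 3 of 9, all higher in the T3 channel (33.3%, beside 5.34% of all genes), namely Kcnk1, Kcnk15 and Kcnk6.

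Kcnk1 encodes TWIK-1, a weakly conducting leak channel of neurons and astrocytes. It had the smallest p of all members. Its deposited spot brightness on arrays 1 to 4 was 1749, 408, 1326.5 and 639 for the T3 rats, against 631, 776, 372 and 1430 for the saline rats. The log2 ratios were 0.43, 0.35, 0.43 and 0.27, all above 0 and close together. The mean was 0.37 ± 0.08 (SD, n = 4), or 1.29-fold, with an interval of 0.21 to 0.54 (limma adjusted p = 0.14). In the authors' deposited table its ratios were 0.23, 0.48, -0.25 and 0.84, a mean of 0.33 with 1 array below 0.

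Kcnk15 encodes TASK-5, a subunit not known to conduct on its own. Its ratios were 0.39, 0.02, 0.13 and 0.45, with a mean of 0.25 ± 0.20 (SD, n = 4; limma adjusted p = 0.55), and the saline channel was well above background on 2 arrays. The mean was 0.61 with the scanner software's processed signals and 0.042 in the authors' deposited table. Kcnk6 encodes TWIK-2. It had ratios of 0.56, -0.05, 0.18 and 0.31, with a mean of 0.25 ± 0.26 (SD, n = 4; limma adjusted p = 0.60). Kcnk2 encodes TREK-1, a leak channel gated by stretch, lipids and heat, and its ratio was 0.48 on array 1 against 0.03, -0.02 and -0.02 on arrays 2 to 4. Kcnk5, the acid-inhibited TASK-2, had the lowest mean of the group, with ratios of 0.16, -0.40, -0.15 and -0.15 (mean -0.13 ± 0.23 SD, n = 4). The other two-pore genes, Kcnk12, Kcnk13, Kcnk4 and Kcnk10, had means of 0.07, 0.06, 0.00 and -0.02.

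The voltage-gated subunits were split, with 12 of 22 above 0 and 10 below, a median of 0.023 and means from -0.23 to 0.37. On arrays 1 to 4 their medians were 0.039, 0.049, 0.056 and -0.026. An unadjusted limma p under 0.05 was reached by Kcng4 and Kcns3 above 0 and by Kcna6 below 0, 13.6% of the group beside 9.26% of all genes. Both genes above 0 encode silent subunits, which form no channel alone and modify Kv2 channels.

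Kcng4 had log2 ratios of 0.63, 0.05, 0.55 and 0.27, with a mean of 0.37 ± 0.27 (SD, n = 4; limma adjusted p = 0.35). Its saline channel was well above background on 1 array only, and the mean was 1.16 with the scanner software's processed signals. For Kcns3 the ratios were 0.14, 0.13, 0.57 and 0.11 (mean 0.24 ± 0.22 SD, n = 4; limma adjusted p = 0.59), with array 3 apart from the rest. The Kv2 pore gene Kcnb2 had a mean of -0.02.

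The Shaker-type genes, which carry low-threshold current at axons and terminals, went both ways. Kcna6 had ratios of -0.47, 0.07, -0.25 and -0.27 and a mean of -0.23 ± 0.22 (SD, n = 4; limma adjusted p = 0.60). A second, dimmer probe of Kcna6 had a mean of -0.12. Kcna1 had ratios of -0.06, 0.27, 0.28 and 0.19, above 0 on 3 of 4 arrays, with a mean of 0.17 ± 0.16 (SD, n = 4; limma adjusted p = 0.67). Means of the other Shaker-type genes were 0.15 for Kcna5, -0.15 for Kcna4 and -0.16 for Kcna2.

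Kcnc1 encodes Kv3.1, which allows fast spiking, and its ratios spread widely. They were 0.33, -0.58, 0.55 and 0.29, with a mean of 0.15 ± 0.50 (SD, n = 4; limma adjusted p = 0.92), an SD larger than that of 97.5% of all genes. Kcnd2, the A-type channel Kv4.2, had ratios of 0.03, 0.11, -0.14 and -0.11 and a mean of -0.03 ± 0.12 (SD, n = 4). Its relative Kcnd1 was below 0 on all 4 arrays, with a mean of -0.14 ± 0.06 (SD, n = 4; limma adjusted p = 0.68).

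The ether-a-go-go genes Kcnh2 and Kcnh1 were above 0 on all 4 arrays, with means of 0.15 ± 0.09 and 0.13 ± 0.12 (SD, n = 4 each). Kcnh2 encodes the repolarising channel ERG1, and its mean was -0.025 in the authors' deposited table. Kcnh7 and Kcnh6 had means of 0.11 and 0.01. Kcnh3 had a mean of -0.17 ± 0.22 (SD, n = 4), with 1 array well above background in the T3 channel. Kcnc2, Kcng2, Kcns1 and Kcnv1 had means of 0.06, -0.04, -0.12 and -0.13. Kcng2 had 3 kept probes with means from -0.08 to 0.00, which differed in sign.

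The calcium-activated group had the median closest to 0 in the main setting. Its 6 genes had means from -0.03 to 0.08 and a median of 0.0077, with 3 above 0 and 3 below. No member reached an unadjusted limma p under 0.05, beside 9.26% of all genes, and none had 1 sign on all 4 arrays. Medians on arrays 1 to 4 were -0.089, 0.10, 0.14 and -0.11, so the arrays went opposite ways. The group median was -0.019 without array 2, 0.035 without array 1 and 0.047 without array 4, and 0.065 with the authors' deposited table.

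Kcnma1 encodes the pore of the large-conductance BK channel, which limits spike width and hormone release. Its ratios were -0.11, 0.18, 0.17 and -0.33, low on arrays 1 and 4, with a mean of -0.02 ± 0.25 (SD, n = 4) and an interval of -0.26 to 0.22. A second, dimmer probe of Kcnma1 varied far more, with ratios of -0.50, 0.96, -0.09 and -0.46 (mean -0.02 ± 0.68 SD, n = 4). It was well above background on all 4 arrays in both channels. The small-conductance SK genes, which produce the afterhyperpolarisation, had means above 0. Ratios were -0.15, 0.09, 0.19 and 0.17 for Kcnn2 (mean 0.08 ± 0.16 SD, n = 4). They were 0.02, -0.04, 0.13 and 0.16 for Kcnn3 (mean 0.06 ± 0.09 SD, n = 4). Kcnn4, the intermediate-conductance channel of non-excitable cells, had 0.29, 0.11, -0.14 and -0.11 (mean 0.04 ± 0.20 SD, n = 4).

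The sodium-activated Kcnt1 had ratios of -0.07, 0.06, 0.16 and -0.25 (mean -0.03 ± 0.18 SD, n = 4). Its relative Kcnt2 had a mean of -0.02 over 3 arrays, its spot on array 4 having been left out as an outlier. The SK interval that reached furthest above 0 was that of Kcnn2, up to 0.27.

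Auxiliary subunits had 6 of 9 means above 0, a median of 0.029 and a range of -0.19 to 0.16. Their medians on arrays 1 to 4 were -0.025, 0.097, 0.071 and -0.061. Kcnip2, a calcium sensor that assembles with A-type Kv4 channels, was the 1 gene of the group at an unadjusted limma p under 0.05 (11.1%, beside 9.26% of all genes). Its ratios were -0.15, -0.19, -0.37 and -0.06, below 0 on all 4 arrays, with a mean of -0.19 ± 0.13 (SD, n = 4; limma adjusted p = 0.58). In the authors' deposited table its mean was above 0, at 0.10.

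Kcnip3, the calcium sensor also known as the transcriptional repressor DREAM, had ratios of 0.04, 0.20, -0.01 and -0.03 (mean 0.05 ± 0.10 SD, n = 4). The Shaker beta subunits had means of 0.16 ± 0.20 for Kcnab3, 0.01 for Kcnab1 and -0.10 ± 0.13 for Kcnab2 (SD, n = 4). A second, dimmer probe of Kcnab1 was above 0 on all 4 arrays, with ratios of 0.30, 0.20, 0.10 and 0.06 and a mean of 0.16 ± 0.11 (SD, n = 4; limma adjusted p = 0.64). Ratios of Kcnab3 were -0.09, 0.10, 0.24 and 0.39. Ratios of Kcnab2 were -0.10, -0.27, 0.05 and -0.06. Kcnip1 and Kcnip4 had means of 0.12 and 0.04, and the BK beta subunits Kcnmb4 and Kcnmb2 had 0.03 and -0.02.

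Set side by side, the group medians were 0.14 for inward rectifiers, 0.070 for two-pore channels, 0.029 for auxiliary subunits, 0.023 for voltage-gated subunits and 0.0077 for calcium-activated channels. The SD of the 4 array medians was 0.10 for inward rectifiers, 0.19 for two-pore, 0.075 for auxiliary, 0.038 for voltage-gated and 0.13 for calcium-activated genes. With the authors' deposited table the order was different, with 0.065 for calcium-activated, 0.042 for two-pore, 0.021 for auxiliary, 0.011 for inward rectifier and -0.011 for voltage-gated genes. Neighbours in the order of the main setting differ by less than the spread of their own medians between arrays. No group had the highest median on all 4 arrays: two-pore channels led on array 1, calcium-activated channels on array 2, and inward rectifiers on arrays 3 and 4. No test between groups was made, since the genes of a group are not replicates.

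**Figure D3:**
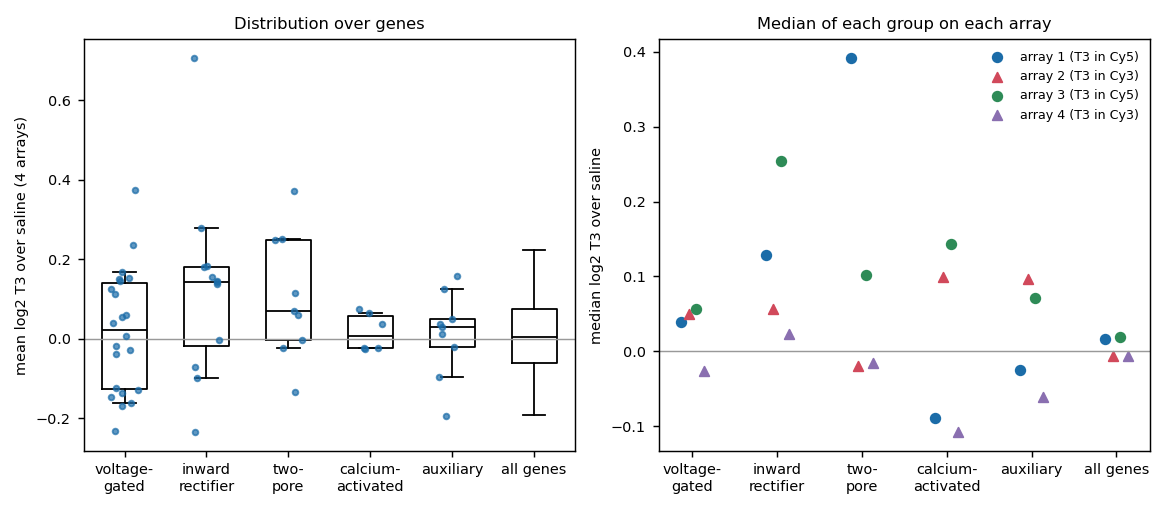
Left, mean log2 T3/saline ratio (vertical axis) of each gene in each channel group and in all genes tested, with boxes from the lower to the upper quartile, a line at the median and whiskers from the 5th to the 95th percentile. Right, the median of each group on each array, on its own vertical scale. The two-pore median is 0.39 on array 1 and -0.020 on array 2, and no group leads on every array.

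Not all channels of the family could be compared. Of the 82 genes with a probe, 24 did not pass the background filter, and 10 of those were not well above background on any array in either channel. These included Kcnj2, the classical strong inward rectifier Kir2.1, the cardiac and epithelial channel Kcnq1 and its partners Kcne1 and Kcne3. The other 14 were detected on 1 or 2 arrays in some channel, among them Kcnk3, the acid-sensitive leak channel TASK-1 (1 array in the T3 channel, 0 in the saline channel), and Kcne2 (2 and 0). By group, 12 of 34 voltage-gated genes with a probe were below the filter, 3 of 15 inward rectifiers, 2 of 11 two-pore, 1 of 7 calcium-activated and 6 of 15 auxiliary genes. Another 13 genes, Kcnd3, Kcnk9, Kcnq3 and Kcnq5 among them, had no probe matched by accession and were not analysed here. Among the 58, 43 were well above background on all 4 arrays in both channels, a smaller share than the 8006 of 9304 over all genes. The other 15 members, among them Kcnt1, Kcnmb4, Kcnn4, Kcnh7, Kcnk10, Kcnc2 and Kcns1, were below that level on at least 1 array in a channel, and their ratios there are close to the detection limit. The median SD between arrays was 0.20 for the members, beside 0.16 over all genes.

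Other ion transport genes were read from lists in the same way, without adding members. None of the 10 measured channel partners (of 15 listed), 11 sodium channel genes, 14 calcium channel genes or 6 sodium pump genes passed the adjusted threshold. Their medians were 0.023, -0.017, 0.024 and 0.13, beside 0.0042 over all genes. Among partners, the scaffold gene Akap5 had the smallest p, with ratios of -0.02, 0.14, 0.04 and 0.77 and a mean of 0.23 ± 0.37 (SD, n = 4; limma adjusted p = 0.75), which was 0.052 without array 4. The sodium channel gene with the smallest p was Scn11a, with a mean of -0.49 ± 0.16 (SD, n = 4; limma adjusted p = 0.11) and of -0.10 in the authors' deposited table, and among calcium channel genes it was Cacna2d1, at -0.25 ± 0.34.

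Hcn2 encodes a pacemaker channel built like a voltage-gated potassium channel but opened by hyperpolarisation. Its ratios were 0.92, 0.47, 0.95 and 0.80, above 0 on all 4 arrays. The mean was 0.79 ± 0.22 (SD, n = 4; limma adjusted p = 0.052), which misses the threshold. The adjusted p was under 0.05 without the background filter (0.026), with array weights (0.036), after scaling between arrays (0.047) and without array 2 (0.018). It was 0.14 with processed signals, 0.22, 0.29 and 0.25 without arrays 1, 3 and 4, and 1.0 with median centring or the authors' deposited table, where the mean was 0.48. Its relative Hcn3 had a mean of 0.06.

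The effect of processing on single genes is shown for 5 members picked after their values were seen. Kcnj16, Kcnk1, Kcng4, Kcnj10 and Kcnj14 kept their sign in every alternative run for them. The mean of Kcnj16 ranged from 0.57, in the authors' deposited table, to 0.91, without array 2. The dyes were balanced over the arrays, so a dye term in the model could not move the Kcnj16 mean of 0.71. With that term, the dye coefficient was 0.31, the unadjusted limma p was 5.3e-04 and the adjusted p 0.089. Of the 26 members named with values per array by the selection rule, 17 kept their sign in every alternative and 9 did not. Part of that agreement was fixed in advance. The dye term and the mean of kept probes cannot move a gene that has a single kept probe and a value on every array. Settings that change only the background filter also left the means of the 5 members shown as they were. Leaving out 1 array cannot turn the sign of a gene with 1 sign on all 4 arrays, as for Kcnj16, Kcnk1, Kcng4 and Kcnj14. The kept signs of these genes therefore rest on fewer settings than were run.

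**Figure D4:**
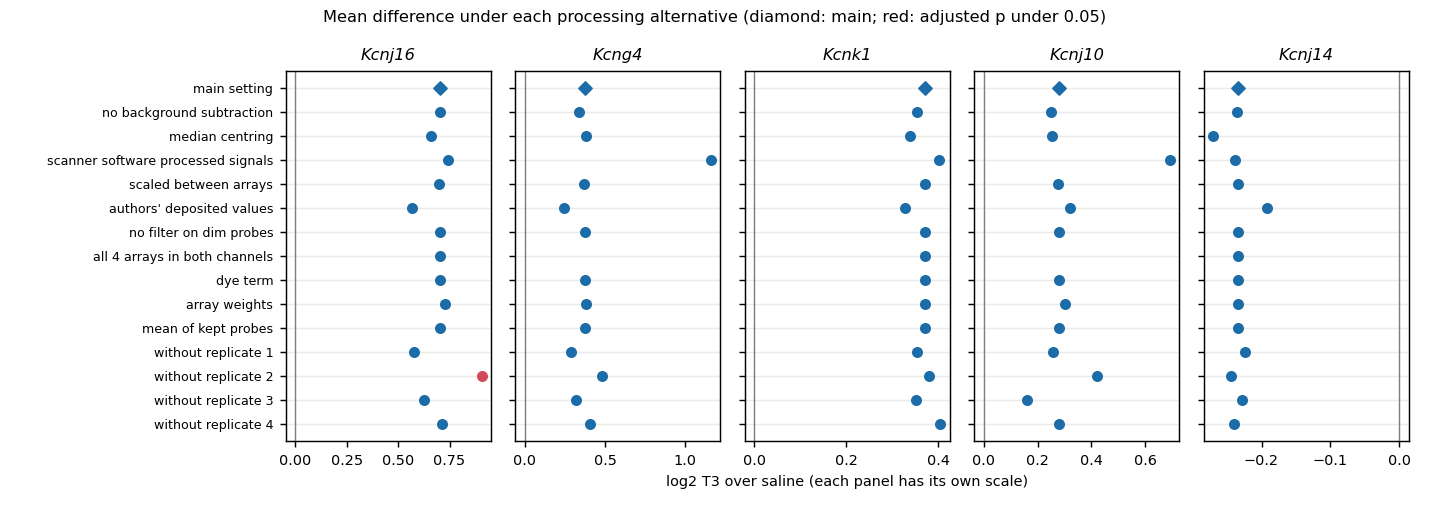
Mean log2 T3/saline ratio (horizontal axis, a separate scale in each panel) of Kcnj16, Kcng4, Kcnk1, Kcnj10 and Kcnj14 under the main setting (diamond) and each alternative (circles), with red for an adjusted limma p under 0.05. The 1 red point is Kcnj16 without array 2, at 0.91, and Kcng4 stands out at 1.16 with the scanner software's processed signals.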

How the data were processed

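RNA of 1 T3 rat and 1 saline rat was hybridised to each of 4 arrays on 1 slide, scanned on 1 day. The deposited scanner files hold median spot and background intensity, processed intensity (background-subtracted and dye-normalized) and the log10 of Cy5 divided by Cy3, made with Agilent Feature Extraction 10.7.3.1 and annotated on rn4, per the file headers. A value table deposited by the authors was read as log2 ratios of T3 over saline. Per the submitters' processing notes it comes from limma 3.18.9. How it was centred and normalized, and in which log base, is not given in the sources used here. The medians of its columns are 0.0026, -0.0024, 0.0021 and 0.0030, and the columns correlate with the scanner ratios of the same arrays at r = 0.43, 0.43, 0.19 and 0.28 across probes (probes are not independent replicates). Its columns for arrays 3 and 4 correlate with each other at r = -0.51 across probes, beside 0.11 across genes for the scanner ratios. The other pairs of its columns lie between -0.023 and 0.31. The deposited table served only as an alternative, and its turned signs and changed orders carry this limit.

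Here, median intensities were corrected with normexp (offset 50) and normalized by loess within arrays in limma 3.58.1 under R 4.3.3, with control spots at weight 0 and outlier spots left out. Ratios of arrays 2 and 4 were turned to T3 over saline. Probes were kept when well above background on at least 3 of 4 arrays in 1 channel (23190 of 41012). Accessions were matched to RefSeq (GRCr8, names only), which named 16964 probes. Moderated tests used lmFit and eBayes with Benjamini-Hochberg adjustment over all kept probes at 0.05. No member spot was saturated. The scripts were tested on simulated data. The number of arrays limits the precision.

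The members and lists were chosen with earlier results of these data known. Values per array are given for the 3 smallest p and the highest and lowest mean in each group, and for a fixed set of well-known channels. In the other lists, the gene with the smallest p and a fixed set of genes are named. A few genes enter all counts and medians but their own values are not reported here.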

Additional observations from a re-analysis of the deposited data

Results flagged for a closer look

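Of 72 sets of 4 array values examined, 4 had 1 array far from the other 3 (gap over range above Dixon's 95% critical value), and chance alone gives about 1 in 20. The two-pore gene Kcnk2 read 0.48 on array 1, while arrays 2 to 4 read -0.02 to 0.03, a gap of 0.897 of its range. Kcns3 stood at 0.57 on array 3 against 0.11 to 0.14 (0.921). The choroid plexus marker Sostdc1 stood at 2.70 on array 3 against -0.37 to -0.08 (0.905). The median of the thalamus markers, 4 of 6 measured, stood at -0.29 on array 4 against 0.084 to 0.13 (0.893).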

How the results depend on the processing

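The count of potassium channel genes past the threshold was 0 in 14 of the 15 refits, and at an adjusted p of 0.1, and ranged from 0 to 1 when each array was left out, the 1 being Kcnj16 without array 2. The count at an unadjusted p under 0.05, 10 in the main setting, was 0 with median centring, 3 with the authors' deposited values, 5 with trend and robust eBayes, and 6 without array 3 or without array 4. The count over all probes fell as well, from 1883 in the main setting to 131, 1133 and 1160 in the first 3 of these. Without array 3 it was 1383 and without array 4 it was 1577. In each of these settings the count of members fell by a larger share than the count over all probes. With the authors' values it was 3 of 58 members beside 1133 of 23190 probes, close to the same share. The higher share of members in the main setting therefore depends on the processing. Of the 10 genes, 1 was shared with the authors' values and 4 without array 1. Probes called, 23 in the main setting, numbered 0 with median centring, processed signals or trend and robust eBayes, 10 with the authors' values, 15 with a dye term, 35 with array weights, 67 without a filter, 0 without array 1, 3 or 4 and 68 without array 2. The voltage-gated median was -0.023 with median centring and -0.017 when all 4 arrays had to be above background in both channels, and the inward rectifier median was 0.011 with the authors' values. The authors' columns for arrays 3 and 4 correlate at r = -0.51 across probes, which limits what a turned sign with their values can mean. Turned signs were not counted over all genes, so the counts that follow have no general share beside them. Over all 58 members, the sign of the mean turned with the authors' values for 14, and leaving out 1 array carried the mean across 0 for 20. With the authors' values these included Kcnh2 (-0.025), Kcnh3 (0.17), Kcnj9 (-0.019), Kcnv1 (0.021), Kcnk12 (-0.077), Kcnc2 (-0.066), Kcnmb4 (-0.045), Kcnc1 (-0.12), Kcnip2 (0.10), Kcnip3 (-0.027), Kcnj13 (-0.042), Kcnma1 (0.036), Kcnt1 (0.093), and among genes of other lists Abcc8 (-0.080), Abcc9 (0.046), Cacna2d1 (0.073), Elavl4 (-0.0052) and Hbb-b1 (0.46). Among the genes run under every setting, signs turned with median centring for Kcnt1 (0.13), without background subtraction for Kcnma1 (0.0040) and Abcc9 (0.0086), and with processed signals for Kcnma1 (0.025). With each array left out in turn, the means that ran across 0 included those of Kcnj5 (-0.16 to 0.045), Kcnk10 (-0.095 to 0.033), Kcnd2 (-0.075 to 0.011), Kcnk2 (-0.0043 to 0.16), Kcnma1 (-0.090 to 0.080), Kcnn4 (-0.045 to 0.096), Kcnt1 (-0.088 to 0.050), Kcnj3 (-0.28 to 0.10), Abcc9 (-0.16 to 0.14), Avp (-1.18 to 0.088), Oxt (-0.89 to 0.55), Hbb-b1 (-1.02 to 1.02) and Sostdc1 (-0.19 to 0.83). The cause was not tested in any of these. Each array ratio already pairs 1 T3 rat with 1 saline rat, so the fit was paired by array and no further block remained to be fitted. Leaving out 1 array gave medians of 0.0085 to 0.027 for voltage-gated, 0.10 to 0.15 for inward rectifier, 0.0043 to 0.13 for two-pore, -0.019 to 0.047 for calcium-activated and -0.027 to 0.078 for auxiliary genes. Signal over background limits the 15 members short of 4 arrays in a channel, most of all Kcng4, Kcnj10, Kcnj4, Kcnk15 and Kcnh3.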

Other observations

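Some genes of glial potassium handling outside the Kcn family were singled out after their values were seen. Atp1b2, the glial beta subunit of the sodium pump, had log2 ratios of 0.90, 0.14, 1.59 and 0.81 on arrays 1 to 4 (mean 0.86 ± 0.59 SD, n = 4; limma adjusted p = 0.24). The astrocyte glutamate transporter Slc1a2 had 0.50, -0.04, 0.53 and 0.36 (mean 0.34 ± 0.26 SD, n = 4). Array 2 was the lowest of the 4 for both genes, as it was for Kcnj16 and Kcnj10. It was also the lowest for Kcnc1 (-0.58), Kcnk5 (-0.40), Kcng4 (0.05) and Hcn2 (0.47), which were not chosen as glial genes. These too were picked after their values were seen. The share of all genes that were lowest on array 2 was not counted, and the part of glia in these values was not tested. Of the 8 astrocyte markers, 3 had means above 0 and 5 below. The astrocyte gap junction gene Gja1 was below 0 on all 4 arrays, with a mean of -0.62 ± 0.23 (SD, n = 4; limma adjusted p = 0.093). None of these genes passed the threshold.

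Markers of the other cell types a block could hold were also read, and the gene with the smallest p is named for each list. The medians on arrays 1 to 4 were 1.35, -3.25, 0.34 and 0.97 for red blood cell genes (3 of 6 measured, all with means below 0), with Hbb-b1 at a mean of -0.30. They were -0.17, -0.38, -0.33 and 0.10 for oligodendrocyte genes (8 of 8, 1 mean above 0 and 7 below, Opalin -0.47) and 0.13, 0.035, 0.032 and -0.030 for endothelial and mural genes (7 of 8, 5 above and 2 below, Cldn5 -0.37). They were 0.15, -0.18, -0.22 and -0.023 for microglia (6 of 6, 2 above and 4 below, P2ry12 -0.14) and -0.055, 0.064, 0.21 and -0.075 for neurons (7 of 8, 6 above and 1 below, Elavl4 0.15). Hypothalamus markers had -0.076, -0.087, -0.45 and 0.053 (8 of 8, 1 above and 7 below, Hdc -0.31), and the magnocellular genes Avp and Oxt had 1.49, -0.027, -2.58 and -0.50, with means of -0.59 and -0.22. Thalamus markers had 2 means above 0 and 2 below (Slc17a6 -0.13), and choroid plexus markers had 4 above and 2 below with a median of 0.22 (Calml4 -0.33). Red blood cell genes were lowest on array 2, the array on which Kcnj16 was lowest, and their part in the potassium channel values was not tested. The T3-responsive gene Klf9 had a mean of 0.90 ± 0.27 (SD, n = 4; limma adjusted p = 0.052).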
